A study of Mus musculus with 617 samples.

Results

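The 8 genes described here belong to the transcriptional arm of the amino acid stress response. They are Atf4, Ddit3, Trib3, Asns, Chac1, Sesn2, Atf3 and Adm2, and they were found by gene symbol among 43628 Ensembl gene IDs in 4 deposited tables, of which 42548 matched the GENCODE vM21 annotation. All 8 were matched. Chac1 and Adm2 were selected on their measured FPKM values, which were seen to be uneven between groups in these data, so their levels are given as a description with no test. The other 6 were chosen by their place in the pathway, with earlier results of these data known, and were tested where the design had replicate cultures.

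When a cell lacks an amino acid, uncharged tRNA activates the kinase GCN2, which phosphorylates the translation factor eIF2 alpha. Protein synthesis then falls in general, while the mRNA of the transcription factor ATF4 is translated more. The kinases PERK, PKR and HRI act on the same factor after stress of the endoplasmic reticulum (ER), viral RNA or loss of haem, so the pathway as a whole is called the integrated stress response. ATF4 binds a composite element, often named CARE, at genes that make, import or charge amino acids onto tRNA. Pluripotent cells are known for a high demand for certain amino acids. Because ATF4 is regulated largely at translation, its mRNA level is a partial reading of its activity.

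The series holds 617 single mouse cells, prepared with the full-length SMART-seq2 method and cut with Tn5. Levels are FPKM, fragments scaled to the length of a gene's exons and to library size, which can be compared between genes. Embryonic stem (ES) lines of both sexes, each from a male CAST/EiJ and a female C57BL/6J parent, were sampled in 4 states. ES cells in 2i and LIF, the inhibitor medium of the ground state, gave 60 female and 51 male cells. Growth in serum with LIF gave 68 female and 52 male ES cells. Epi cells, epiblast-like stem cells made from the same lines with Activin A and FGF2, gave 79 female and 63 male cells. Motor neuron cultures, made through embryoid bodies with retinoic acid and the smoothened agonist SAG, gave 39 female and 35 male cells, and by their protocol hold interneurons too. A further female Epi culture of 7 passages gave 41 cells. Embryo cells of the same cross were 23 labelled E3.5 ICM (inner cell mass) and 23 labelled E4.5 epiblast, with no sex given. E5.5 epiblast cells had C57BL/6J parents on both sides and numbered 20 female and 63 male. Sex and line are the same factor in the cultures, and each sex was 1 line.

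Median genes at 1 FPKM or more ranged from 8122 per cell at E3.5 to 10839.5 in female E5.5 cells, and the read depth is unknown. The motor neuron cultures had the highest median FPKM sum per cell. Tables of the 7-passage Epi culture, the blastocyst cells and the E5.5 cells were normalised apart from the others, so levels set across them include any difference in processing. The female Epi culture carried all 5 pluripotency markers at a summed mean of 1322 FPKM and the primed markers at 159.4 FPKM. These sums were 331 and 535 FPKM in male Epi, and 453 and 434 FPKM in 7-passage Epi. All 8 neuron markers were above 1 FPKM in both motor neuron cultures, with sums of 2555 FPKM (female) and 6641 FPKM (male). The 8 endoderm markers summed to 208.1 FPKM and 591 FPKM there, with 7 and 6 of them above 1 FPKM and Afp at 0 in the male culture. Labelled E5.5 epiblast cells also held 7 of the 8 endoderm markers above 1 FPKM, with sums of 2342 FPKM (female) and 649.5 FPKM (male). Cells of a culture are not replicates, so each culture is 1 sample below and SD is the spread among its cells. No label says that samples came from separate cultures within a line and state, and p-values measure the spread between lines.

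Promoter windows were searched for the letters of the element that ATF4 binds. The motif TGATGNAA was searched on both strands of the RefSeq windows of GRCm38.p6 that run from 250 bases before to 50 bases after each gene's start. It was present in 4 of the 8 members, Trib3, Asns, Chac1 and Atf3, and in 3.969% of 32851 windows of the same length. The 30 bases around each match follow, read 5′ to 3′ on the strand of the match, with the motif in capitals.
Trib3: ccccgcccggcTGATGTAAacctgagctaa
Asns: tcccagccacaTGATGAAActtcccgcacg
Chac1: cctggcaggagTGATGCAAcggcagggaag
Atf3: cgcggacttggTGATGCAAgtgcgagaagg
Coordinates are those of the 30 bases. The Trib3 match lies at chr2:152344028-152344057 on the strand opposite to the gene, 15 bases after the RefSeq start. Its flanking bases reach the annotated first exon and UTR, while the motif itself lies outside the GENCODE gene, which ends at 152344032. The Asns match lies at chr6:7693214-7693243 on the gene's strand, 23 bases before the RefSeq start, with the motif within the UTR of the GENCODE model. The Chac1 match lies at chr2:119351038-119351067 on the opposite strand, 193 bases before the start and outside any annotated gene. The Atf3 match lies at chr1:191183425-191183454 on the opposite strand, 110 bases before the RefSeq start, in an intron of the longer GENCODE model. The letters TGACGTCA, the cyclic AMP response element, were found in 0 of the 8 windows and in 1.79% of all. A match is a description of letters and not of binding, and a gene with no match may carry the element outside the window.

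Atf4 (ENSMUSG00000042406, chr15:80255184-80257541), the transcription factor at the head of the set, was detected in nearly all cells. It reached 1 FPKM in every cell outside E3.5 and in 22 of 23 cells at E3.5. Group means ran from 38.2 ± 21.4 FPKM (SD, 23 cells) at E3.5 to 504.6 ± 152.2 FPKM (63 cells) in male Epi. Between these ends, the means of the other 11 groups ran from 129.5 to 301.1 FPKM, and each neighbour in that order differed by less than the larger SD.

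Asns (ENSMUSG00000029752, chr6:7675169-7693254), which makes asparagine from aspartate and glutamine, was the most abundant member in 10 of the 13 groups. Its means ran from 95.7 ± 54.6 FPKM in female E5.5 cells to 1049 ± 236.6 FPKM in male 2i cells. Sesn2 (ENSMUSG00000028893, chr4:132492032-132510501), a leucine sensor that restrains the growth kinase mTORC1, was found in 80 to 100% of the cells of every group at means of 4.39 to 92.4 FPKM. Ddit3 (ENSMUSG00000025408, chr10:127290774-127296288), which encodes the pro-apoptotic factor CHOP, was found in 56.5 to 95.2% of cells. It shares up to 68 exon bases with Mars and Gm4189 on the opposite strand, and the libraries are not stated to keep strand, so its level may include their fragments.

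Trib3 (ENSMUSG00000032715, chr2:152337422-152344032), a pseudokinase that feeds back on ATF4, spanned 8.70% of cells at E3.5 to 98.4% in male Epi. Chac1 (ENSMUSG00000027313, chr2:119351229-119354381), which degrades glutathione, and Atf3 (ENSMUSG00000026628, chr1:191170296-191218039), a stress-induced repressor, were listed at 0 in all 23 cells at E3.5, which allows a share of up to 13.0% of cells. Adm2 (ENSMUSG00000054136, chr15:89322720-89324731), a secreted peptide of the calcitonin family, was found in none of 39 female and 35 male motor neuron cells. The same intervals allow shares of up to 9.03% and 10.0%. These limits cover counting error only.

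**Figure D1:**
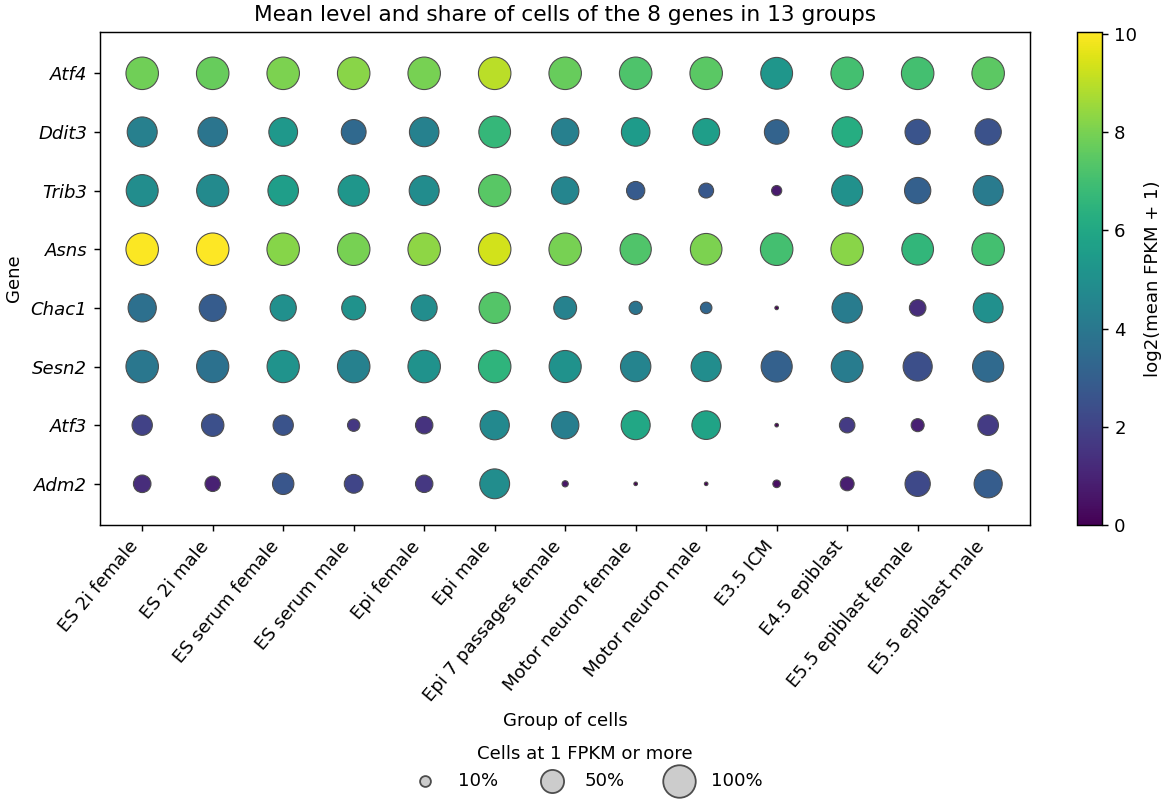
Mean level (colour, log2(mean FPKM + 1)) and share of cells at 1 FPKM or more (dot area) of the 8 genes in the 13 groups of cells. Asns is brightest in both 2i cultures, at 1013 and 1049 FPKM, and Atf4, Ddit3, Trib3, Chac1, Sesn2 and Adm2 are brightest in male Epi.

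The male Epi culture had the highest mean of 6 of the 8 genes among the 13 groups: Atf4, Ddit3, Trib3, Chac1, Sesn2 and Adm2. It was second to the 2i cultures for Asns and to the motor neuron cultures for Atf3. All 8 genes were at 1 FPKM or more in 42 of its 63 cells (66.7%, 95% Clopper-Pearson interval 53.7 to 78.05%), against 8 of 79 female Epi cells (10.1%, 4.47 to 18.98%) and 0 of 41 cells of 7-passage Epi (0 to 8.60%). These shares are a description that includes Chac1 and Adm2, which were selected for their unevenness, and Adm2 alone reached 1 FPKM in 53 of 63 male, 22 of 79 female and 1 of 41 cells of 7-passage Epi.

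Trib3 in single male Epi cells ran from 1.00 FPKM over a median of 155.8 FPKM to 499 FPKM. In female Epi it ran from 0 over 19.4 to 140.8 FPKM, and in 7-passage Epi from 0 over 8.11 to 228.8 FPKM. The middle 50% of male Epi cells lay above that of every other group. Chac1 ran from 0 over a median of 138.9 to 558 FPKM in male Epi, with medians of 4.67 FPKM in female and 0.23 FPKM in 7-passage Epi. Adm2 had a mean of 28.6 ± 30.98 FPKM in male Epi, 2.09 ± 4.12 FPKM in female Epi and 0.49 ± 3.04 FPKM in 7-passage Epi, where 1 of 41 cells reached 1 FPKM. Atf3 differed between the female cultures, with 25.7 ± 43.2 FPKM in male Epi, 18.3 ± 35.5 FPKM in 7-passage Epi and 1.76 ± 3.62 FPKM in female Epi.

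The 2 runs of title numbers in male Epi (a run ends at a gap above 20), which the labels do not explain, were alike for Trib3, Chac1 and Ddit3. Mean Trib3 was 159.9 and 184.1 FPKM in 31 and 32 cells, mean Chac1 155.7 and 166.9 FPKM, and mean Ddit3 98.1 and 103.97 FPKM. Sesn2 was 75.7 FPKM in the lower and 108.6 FPKM in the higher run.

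Male against female Epi has 1 culture an arm and carries no test. On the log2(mean FPKM + 1) scale, 5 of the 6 members not selected for unevenness were higher in male Epi by at least 1, while 10.7% of 14356 genes were. The differences were 3.27 for Atf3, 2.58 for Trib3, 2.32 for Ddit3, 1.42 for Sesn2, 1.02 for Asns and 0.99 for Atf4. Those of Adm2 and Chac1, given as a description only, were 3.26 and 2.45. Male Epi also had fewer genes per cell, with a median of 9355 against 10409, and more of the 4 primed markers, as given above. The 7-passage culture, normalised apart, had primed markers at 434 FPKM and low Trib3, Chac1, Ddit3 and Adm2. Its mean Atf3 of 18.3 FPKM was nearer to male Epi (25.7 FPKM) than to female Epi (1.76 FPKM). Endoderm markers summed to 105.2 FPKM in male, 3.90 FPKM in female and 72.7 FPKM in 7-passage Epi, with Ttr at 0 in all 3, and trophectoderm markers to 173.9, 42.03 and 1266 FPKM. The part of these marker differences in the result was not tested.

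Among the other genes of the pathway, the amino acid transporters Slc1a4, Slc6a9 and Slc7a1 were higher in male than in female Epi, by 2.49, 1.85 and 1.54, and Slc7a3 was lower (-1.96). These are 3 higher and 1 lower of 9 genes in that list. Over all 14356 genes, 10.7% were higher in male Epi by at least 1 and 15.7% were lower. Of 11 genes of amino acid synthesis, Mthfd2, the mitochondrial folate enzyme that takes up serine's carbon, was higher by 1.21, Aldh18a1 by 1.29 and Gpt2 by 1.22, and Cbs was lower (-1.34). None of 12 tRNA synthetases named as ATF4 targets and none of 8 others differed by 1 or more, with medians of 0.29 and 0.11. Among 6 partners, Atf5, a close relative of Atf4, went from 5.29 FPKM (female) to 20.9 FPKM (male), and Nupr1, a stress-induced chromatin protein, from 43.5 to 12.0 FPKM. Of 13 ER chaperones and their regulators, Herpud1 was higher by 1.82 and Xbp1 lower (-1.45). Of 10 p53 targets, none was higher by 1 and Cdkn1a, Zmat3 and Eda2r were lower (-1.33, -1.18 and -1.62). Fos, Junb and Egr1 were higher, by 2.91, 1.49 and 3.39, among 7 measured immediate early genes. The paralogs Trib1 and Trib2 were higher by 1.42 and 2.10. Vldlr and Stc2, other outputs of the response, stood at 1.44 and 5.06 FPKM in the female culture and at 25.5 and 15.96 FPKM in the male one. The eIF2 alpha phosphatase subunit Ppp1r15b was higher by 1.23, alone among 7 genes of that step, and Ramp3, a receptor part for Adm2, was lower (-1.92).

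**Figure D2:**
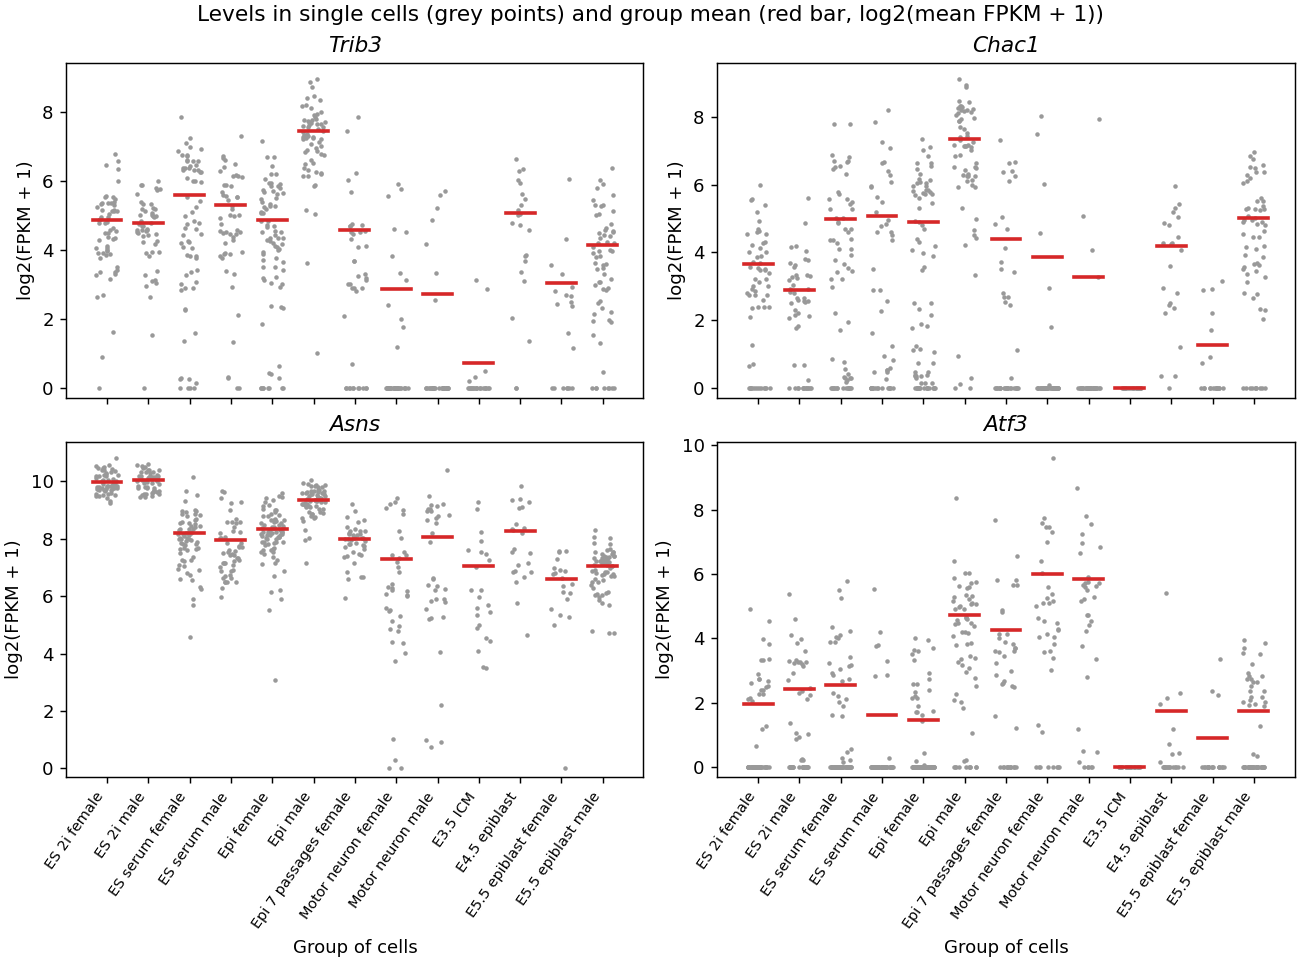
Level of Trib3, Chac1, Asns and Atf3 in every cell (grey points, log2(FPKM + 1)) by group, with the group mean as a red bar. Male Epi stands above the other groups for Trib3 and Chac1, both 2i cultures for Asns, and the motor neuron, male Epi and 7-passage Epi cultures for Atf3.

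The test of Epi against ES serum compared the 2 labelled states, with the 2 lines as replicates. By their markers the 2 Epi cultures were unlike, with primed markers at 159.4 FPKM (female) and 535 FPKM (male) in sum. The test therefore does not read a change to 1 shared primed state. A call needs a log2 change of 1 or more and a limma p under 0.05 after Benjamini-Hochberg adjustment. limma called 6 of 15504 genes (0.0387%), and 2 with the line as a replicate block. This comparison and the next 2 share the serum cultures. None of the 6 tested members was called, and none had an unadjusted p under 0.05 by limma. The lines moved apart. From serum to Epi, mean Ddit3 went from 39.5 to 19.5 FPKM (female) and from 9.53 to 101.1 FPKM (male). Mean Trib3 went from 47.1 to 28.05 FPKM (female) and from 37.98 to 172.2 FPKM (male). Mean Sesn2 was 34.5 and 33.9 FPKM in the female line, and 19.9 and 92.4 FPKM in the male. Of the 8 genes, 7 had a lower mean in female Epi than in female serum, all but Asns, and all 8 had a higher mean in male Epi than in male serum. The smallest adjusted p of a member was 0.727, for Asns and Sesn2. Without the female Epi culture the change of Trib3 was 2.00, a value from 1 Epi culture that carries no test. With the 7-passage culture as the female Epi sample, Atf3 was called, with a change of 2.404 (limma adjusted p = 0.0241, against 0.810 in the main fit). Atf3 was called in this 1 of 20 alternatives. Of the 94 tested genes of 12 pathway lists, limma called none in this comparison, with 13 at an unadjusted p under 0.05.

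**Figure D3:**
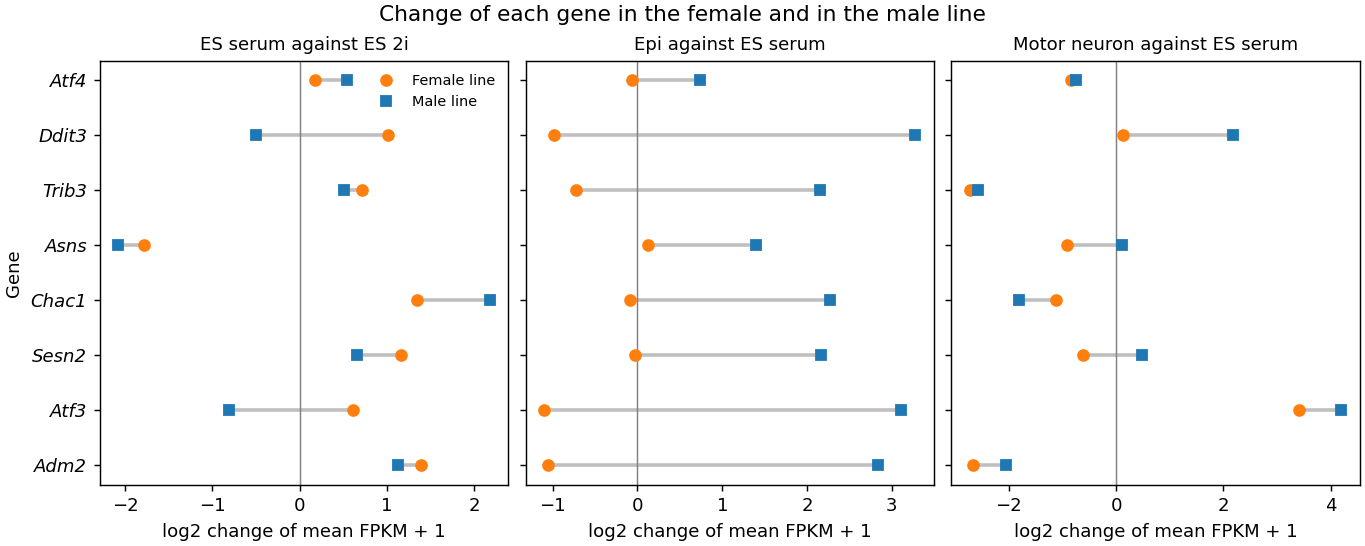
Change of each gene on the log2(mean FPKM + 1) scale in the female line (orange circles) and the male line (blue squares) for the 3 comparisons of states. The lines lie apart in Epi against serum, where Ddit3 changed by -0.98 and 3.28, and close together for Trib3, Atf3 and Adm2 in motor neuron against serum.

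ES cells in 2i had the highest Asns of all groups. Asns ran from 608 over a median of 927 to 1816 FPKM in female 2i cells and from 701.6 over 1041 to 1541 FPKM in male 2i cells. In serum it ran from 22.6 over 259.99 to 1145 FPKM in female and from 62.5 over 182.6 to 811 FPKM in male cells. The lowest 2i cell of either line thus lay above the median serum cell, and the ranges overlapped. The ratio of mean Asns to mean Atf4 was 4.34 and 5.10 in 2i and 1.11 and 0.82 in serum. In the same 2i cells mean Chac1 was 11.5 and 6.43 FPKM, against 30.7 and 32.6 FPKM in serum, and mean Sesn2 was 14.9 and 12.3 FPKM, against 34.5 and 19.9 FPKM. Adm2 was at 1.44 and 0.91 FPKM in 2i and at 5.39 and 3.15 FPKM in serum.

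limma called 3 of 15504 genes (0.0193%) in serum against 2i, with 1549 at an unadjusted p under 0.05. With the line as a replicate block it called 0, with 1727 at an unadjusted p under 0.05. None of the 6 tested members was called, and Asns was the only one with an unadjusted p under 0.05. The log2 change of Asns was -1.93 (SE 0.39, limma adjusted p = 0.156), with -1.78 in the female and -2.07 in the male line. A fit of the 4 ES cultures alone gave an adjusted p of 0.0262 by limma, and the mean of log2 values over cells gave 0.0492, in a range up to 0.722 over 20 alternatives. The male serum value rested on 2 unlike runs of title numbers, with a mean Asns of 495 FPKM in the 13 cells of the lower run and 165.9 FPKM in the 39 cells of the higher run. Mean Atf4 was 291 and 304 FPKM in these runs. In 2i the runs gave 842 and 1185 FPKM (female) and 891 and 1170 FPKM (male), all above the serum runs. None of the 94 list genes was called by limma, with 17 at an unadjusted p under 0.05.

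Motor neuron cultures had high Atf3, low Trib3 and no cell with 1 FPKM of Adm2. limma called 5088 of 15504 genes (32.8%), 4669 higher and 419 lower, and the median change of all genes was 0.71. Under upper-quartile scaling, where that median was 0.00, the calls were 2183 higher and 1611 lower, and with each cell rescaled to the same sum 2166 higher and 971 lower around a median of 0.14, so changes are to be read beside that shift. Of the 6 tested members 1 rose and 1 fell. Beside the 32.8% of all genes called, this count does not set the members apart.

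Mean Atf3 was 4.93 FPKM (female) and 2.11 FPKM (male) in serum and 62.4 and 55.8 FPKM in motor neuron cultures, which lay above both serum cultures. It rose by 3.81 (SE 0.99, limma adjusted p = 0.0274), alike in both lines (3.42 and 4.19). The call was lost with each cell rescaled (adjusted p = 0.0626), under upper-quartile scaling (0.0709), with no filter (0.0778), and without any one of the female or male 2i (0.0575, 0.0589), serum (0.0884, 0.136) or motor neuron cultures (0.0962, 0.107), in a limma range from 0.00167 to 0.136 and with the direction kept in all 20 alternatives. The share of cells with Atf3 was 79.5% (63.5 to 90.7%) and 77.1% (59.9 to 89.6%), against 38.2% (26.7 to 50.8%) and 13.5% (5.59 to 25.8%) in serum.

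Mean Trib3 was 47.1 and 37.98 FPKM in serum and 6.25 and 5.54 FPKM in motor neuron cultures. It fell by 2.65 on the log2 scale (SE 0.75, limma adjusted p = 0.0363), alike in both lines (-2.73 and -2.58). Its call was lost with no filter (0.0954) and without any one of the 2i (0.072, 0.0733), serum (0.156, 0.121) or motor neuron cultures (0.103, 0.139), female first, in a limma range from 0.00452 to 0.156. Trib3 was found in 30.8% (17.02 to 47.6%) and 20% (8.44 to 36.9%) of motor neuron cells. Adm2 reached 1 FPKM in 42.6% (30.7 to 55.2%) and 32.7% (20.3 to 47.1%) of serum cells and in none of 74 motor neuron cells. Chac1 was found in 6 of 39 and 4 of 35 motor neuron cells, with means of 13.6 and 8.62 FPKM that rest on those cells.

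Atf4 changed by -0.79 (SE 0.33, limma adjusted p = 0.106), Asns by -0.41 (SE 0.39, 0.441), Sesn2 by -0.07 (SE 0.51, 0.937) and Ddit3 by 1.16 (SE 0.88, 0.329), and none was called. Atf4 was called as lower under upper-quartile scaling (-1.65, limma adjusted p = 0.0157) and with each cell rescaled (-1.44, 0.0304), in a limma range up to 0.313. Asns was called as lower under upper-quartile scaling (-1.27, 0.0455) and with the mean of log2 values (-1.47, 0.0341), in a limma range up to 1.00.

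Of the 94 list genes tested, limma called 23 higher and 4 lower in motor neuron cultures, beside 4669 higher and 419 lower of all 15504 genes. These list counts do not set the pathway apart from other genes. The 4 were Slc7a3 (-4.03), a cationic amino acid transporter, Cth (-2.80), which makes cysteine, Mthfd2 (-1.38) and the glutamine transporter Slc1a5 (-1.13). The transport list had 0 higher and 2 lower of 9, with a median of -0.13, and the synthesis list 1 higher (Aldh1l2, 2.09) and 2 lower of 11, with a median of -0.56, beside 0.71 for all genes. No gene of the 12 tRNA synthetases named as ATF4 targets, the 8 other synthetases or the 5 tested other outputs passed the limma test, with medians of -0.21, 0.05 and -0.20. Under upper-quartile scaling 7 of the 12 and 3 of the 8 synthetases were called lower, and 7 of 11 synthesis genes.

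ER chaperones went the other way, with 8 of 13 called higher and a median of 1.43. Dnajb11 rose by 1.67, Hspa5, the main chaperone of the ER, by 1.43, and Calr by 1.48, and Sdf2l1, Dnajb9, Pdia6, Manf and Hsp90b1 rose by 1.11 to 1.52. Of the p53 targets 6 of 10 rose, with a median of 1.32, among them the cell cycle inhibitor Cdkn1a by 2.15, Ccng1 by 2.15, Eda2r by 2.44, Phlda3 by 2.35 and Bbc3 by 1.34. The kinase genes Eif2ak3 (PERK) and Eif2ak2 (PKR) rose by 1.36 and 1.38, and Ppp1r15a, the stress-induced eIF2 alpha phosphatase subunit, by 1.65, which are 3 of 7. Fos and Jun rose by 3.16 and 2.58 among 7 tested immediate early genes, and Jun was the 1 gene of 6 that rose among ATF4 partners. The paralogs Trib2, Sesn3 and Sesn1 rose by 3.11, 2.14 and 1.31, of 7, and Ramp2, a receptor part for adrenomedullin peptides, by 3.24, of 2 tested. Under upper-quartile scaling, where all genes centre on 0.00, none of these ER chaperones, p53 targets, kinases or immediate early genes was called higher, while Trib2, Sesn3 and Ramp2 were.

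The motor neuron cultures hold cells with more neuron markers beside cells with more endoderm markers, and only these lists were used to divide them. Trophectoderm markers also summed to 809.1 FPKM (female) and 551.8 FPKM (male), and decidua markers to 779.2 and 574.5 FPKM. These sums were above that of endoderm markers in the female culture (208.1 FPKM) and below it in the male (591 FPKM). Which cells carried these other markers was not tested. Neuron markers had the higher mean log2(FPKM + 1) in 26 of 39 female and 21 of 35 male cells, and endoderm markers in 13 and 14. Between these, mean Asns was 182.6 and 97.8 FPKM in the female culture, with medians of 67.7 and 78.8 FPKM, and 420.01 and 38.9 FPKM in the male, with medians of 444.2 and 37.3 FPKM. The female means and medians thus differed in direction. Cells with more neuron markers also had more genes at 1 FPKM or more, with medians of 9780 against 8847 (female) and 9834 against 8959 (male). The rho with genes per cell in the female and male culture was 0.39 and 0.33 for Asns and 0.41 and 0.32 for Atf4. The part of this difference in the levels was not tested. The difference between the marker means also left a gap, and a split at 6 in that gap was chosen after the values were seen. It is not a split of neurons from endoderm cells, since only 7 of the 26 and 16 of the 21 cells lay above it. In the 7 female cells above it Asns ran from 262.03 over 543 to 684 FPKM, and in the 32 below from 0 over 54.8 to 306.6 FPKM. In the 16 male cells above it Asns ran from 236.7 over 500.9 to 1331 FPKM, and in the 19 below from 0.66 over 54.1 to 99.4 FPKM. Male cells of the 2 sides did not overlap, and in the female culture the ranges overlapped between 262.03 and 306.6 FPKM. Mean Asns above the split was 527 ± 137.8 FPKM (female) and 528 ± 244.4 FPKM (male). The whole serum cultures had means of 293.7 and 248.3 FPKM. That sets chosen cells beside whole cultures. The shift of all genes from serum to motor neuron cultures, a median log2 change of 0.71, is included in it.

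Sesn2 and Atf3 had lower means in the cells above the split. Mean Sesn2 was 5.65 ± 7.32 and 12.2 ± 14.1 FPKM in female and male cells above the split and 25.7 ± 18.03 and 41.6 ± 35.8 FPKM below it. Divided by which markers were higher, mean Sesn2 in the female culture was 23.3 FPKM in cells with more neuron and 19.7 FPKM in cells with more endoderm markers, so the direction did not hold there, and 19.7 and 40.9 FPKM in the male. Mean Atf3 was 10.3 ± 12.4 and 39.4 ± 53.6 FPKM above and 73.8 ± 143.99 and 69.7 ± 98.9 FPKM below. Divided by which markers were higher it was 36.4 and 114.3 FPKM in the female and 44.1 and 73.5 FPKM in the male culture. Ddit3 was at 60.2 and 72.1 FPKM above and at 39.9 and 25.5 FPKM below. Chac1 was found in 3 of 7 female cells above the split and 3 of 32 below, and in 4 of 16 and 0 of 19 male cells. Mean Atf4 was 328.9 and 205.3 FPKM above and 108.04 and 155.4 FPKM below. Over all cells of a culture, the Spearman rho of Asns with the neuron marker mean was 0.36 in 39 female and 0.84 in 35 male cells, a description of cells that share 1 culture each.

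**Figure D4:**
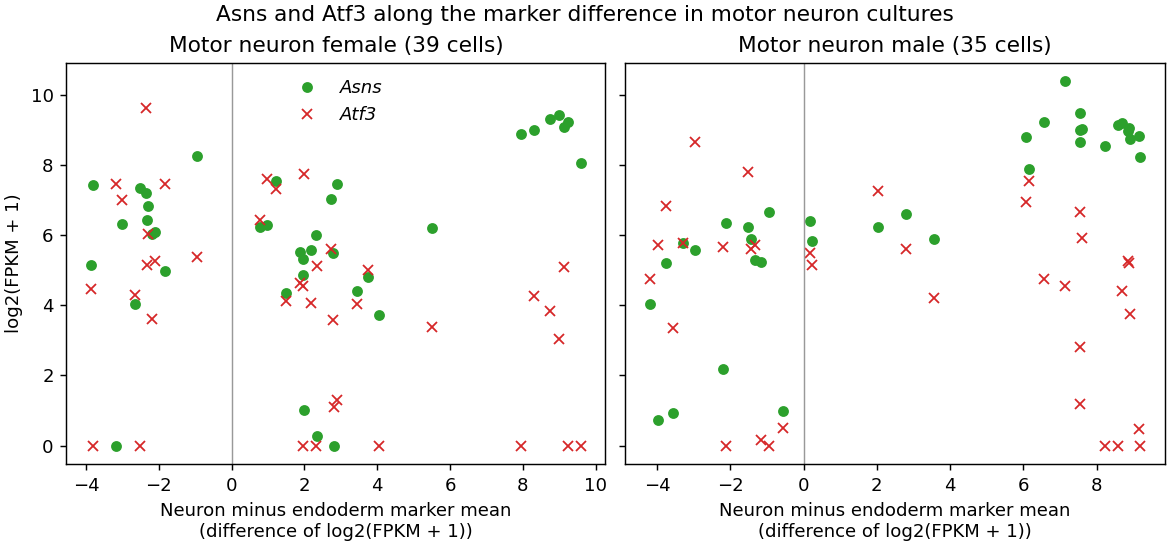
Level of Asns (green circles) and Atf3 (red crosses) in each motor neuron cell against the difference between its neuron and endoderm marker means. Cells at the right, with a difference above 6, hold Asns at 236.7 FPKM or more in both cultures, while Atf3 is spread over cells on both sides.

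Atf4, Ddit3, Asns and Sesn2, each above 1 FPKM at E3.5, had higher means at E4.5. Each stage counts as 1 sample, so no test was made. Atf4 ran from 0 over a median of 35.5 to 88.4 FPKM at E3.5 and from 45.5 over 128.4 to 297.97 FPKM at E4.5, and the ranges overlapped between 45.5 and 88.4 FPKM. Trib3 was found in 2 of 23 cells at E3.5 (8.70%, 1.07 to 28.04%) and in 21 of 23 at E4.5 (91.3%, 71.96 to 98.9%), with means of 0.65 ± 2.03 and 32.2 ± 27.8 FPKM. Chac1 was listed at 0 in all 23 cells at E3.5 and reached 1 FPKM in 20 of 23 at E4.5 (86.96%, 66.4 to 97.2%), at a mean of 17.3 ± 16.3 FPKM. Mean Ddit3 was 7.93 ± 10.4 and 73.8 ± 64.8 FPKM, and mean Asns 132.02 ± 160.1 and 305.5 ± 241.9 FPKM, where the ranges overlapped widely.

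On the log2(mean FPKM + 1) scale E4.5 was higher by 4.33 for Trib3, 4.19 for Chac1, 3.07 for Ddit3, 1.76 for Atf4, 1.75 for Atf3, 1.20 for Asns, 1.08 for Sesn2 and 0.44 for Adm2. Of 11893 genes that passed the level filter over the stages, 11.6% were higher at E4.5 by at least 1. Adm2 was under that filter of 1 FPKM at both stages. Trib3, Chac1 and Atf3 were under 1 FPKM at E3.5 and passed it through their E4.5 values alone, so no count of the members is read against that share. Titles of all E3.5 cells carry further codes that no E4.5 title has, so stage and that difference cannot be told apart. The leading numbers in the titles, which the labels do not explain, split E3.5 into 4 and E4.5 into 7 sets of cells. Mean Atf4 was 20.9 to 63.1 FPKM over the 4 and 50.96 to 181.1 FPKM over the 7 sets, and mean Trib3 0.04 to 1.26 FPKM and 0 to 64.9 FPKM. Trophectoderm markers summed to 402 FPKM at E3.5 and 1207 FPKM at E4.5. Without the 4 and 13 cells in which trophectoderm or endoderm markers exceeded pluripotency markers, an alternative added after seeing the data, the differences were 3.81 for Trib3, 4.28 for Chac1, 2.89 for Ddit3, 1.97 for Atf4, 1.40 for Asns and -0.17 for Adm2.

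Among the lists of the wider pathway, the counts were mixed at E4.5. Of all 11893 genes, 11.6% were higher and 13.4% lower at E4.5 by at least 1. A gene low at E3.5 can pass the filter through E4.5 alone, so no list count is read against these shares. Of 8 measured amino acid transporters 7 were higher by at least 1, with a median of 2.11, among them Slc1a5 (3.196 to 29.01 FPKM) and Slc3a2 (35.8 to 97.1 FPKM), the shared subunit of several amino acid exchangers. Slc38a2, Slc1a4 and Slc6a9 were under 1 FPKM at E3.5 and passed the filter through E4.5 alone. Of 10 synthesis genes 5 were higher, led by Mthfd2 (5.81 to 47.99 FPKM) and Psph (12.5 to 56.4 FPKM), the last step of serine synthesis. Of 12 tRNA synthetases named as targets, Aars, Cars, Gars and Mars were higher by 1.03 to 1.18 and Eprs was lower (-2.11), while of 8 others none was higher and Hars was lower (-4.12). Nupr1, Atf5, Cebpg and Jun of 5 measured partners were higher. Nupr1 went from 0.84 to 34.8 FPKM and passed the filter through E4.5 alone. Herpud1 and Pdia6 were higher among 13 ER chaperones. Ddit4, Gdf15 and Vegfa were higher, the 3 measured of 6 other outputs, and so were Trp53inp1, Phlda3 and Zmat3 of 10 p53 targets. Eif2s1 was lower (-1.08) among 6 genes of eIF2 alpha and its enzymes.

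At E5.5, Chac1, which was selected for its unevenness and is given as a description, had the largest difference between the labelled sexes among the 8 genes. It ran from 0 over a median of 21.1 to 123.6 FPKM in 63 male cells and from 0 over 0 to 7.91 FPKM in 20 female cells. The share of cells was 84.1% (72.7 to 92.1%) in male and 25% (8.66 to 49.1%) in female cells, and the difference of log2(mean FPKM + 1) was 3.72. Trib3 was higher in male cells by 1.12 (16.7 ± 17.5 against 7.15 ± 14.4 FPKM) and Sesn2 by 1.01 (9.82 ± 6.51 against 4.39 ± 3.497 FPKM). The other 5 differed by less than 1, with Atf4 at 181.99 ± 52.8 and 129.5 ± 28.5 FPKM and Ddit3 at 4.78 and 5.04 FPKM, the lowest Ddit3 of all groups. Trib3 and Sesn2 are 2 of the 6 members not selected for unevenness, while 4.78% of 13434 genes were higher in male cells by at least 1.

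The comparison has 1 sample an arm and no test. Title numbers of the male cells are all below those of the female cells, so sex and that order cannot be told apart. Female cells also held more of the 8 endoderm markers (2342 against 649.5 FPKM in sum, with none of the markers at 0 in either), of the 6 decidua markers (76.99 against 15.2 FPKM, none at 0) and of the 6 trophectoderm markers (395.004 against 198.6 FPKM, all above 1 FPKM in both). Their part in the result was not tested. In the cells whose pluripotency mean was above their endoderm mean, 5 female and 42 male, Chac1 was at 1.49 ± 2.88 and 29.1 ± 29.6 FPKM and its difference was 3.59, with 1.38 for Trib3 and 1.58 for Sesn2, an alternative added after seeing the data. Of the 12 lists, Fos and Fosb were the only genes higher in male cells by 1, and Vegfa and Adm were lower. Over all 13434 genes, 4.78% were higher in male cells by at least 1 and 5.97% were lower.

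Co-expression over cells was highest among Atf4, Trib3 and Chac1, while pairs with Asns or Sesn2 ran from 0.00 to 0.23. Spearman rho was taken within each group over genes present in at least 10% of its cells and averaged over groups, and it is a description, since cells of a group share their culture or embryos. The highest of 28 pairs were Atf4 and Trib3 (mean rho 0.47 over 12 groups), Trib3 and Chac1 (0.46, 12 groups) and Atf4 and Chac1 (0.44, 12 groups). Chac1 and Adm2 (0.34) and Trib3 and Adm2 (0.32) followed, over 9 groups. The rho of Atf4 with Chac1 was above 0 in each of its 12 groups, from 0.22 to 0.67. Atf4 and Trib3 reached 0.84 in 68 female serum cells and stood at -0.07 in 20 female E5.5 cells. With the number of genes per cell held fixed, the mean rho of Atf4 and Trib3 was 0.46, and within runs of title numbers it was 0.46 over 14 runs.

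Mean rho of Asns was 0.21 with Trib3, 0.20 with Chac1, 0.18 with Atf4 and 0.07 with Sesn2 and Adm2. With Ddit3 and Atf3 it was 0.04. In the 2i cultures, where Asns was at its highest, its rho with Atf4 was 0.03 in 60 female and 0.02 in 51 male cells. Within runs of title numbers it was 0.27 and 0.02 in the female and 0.01 and 0.18 in the male 2i culture. Over 14 runs of the cultures with 2 runs this rho had a mean of 0.25, and all 14 were above 0. Over whole groups the rho of Asns and Atf4 was 0.59 in 23 cells at E4.5 and -0.53 in 20 female cells at E5.5. Sesn2 had a mean rho of 0.23 with Trib3, 0.22 with Atf3, 0.18 with Ddit3, 0.14 with Chac1 and 0.13 with Atf4. Sesn2 and Adm2 had the lowest mean of all pairs, 0.00 over 9 groups. Female serum ES cells had the highest mean over pairs, 0.45, with all 28 pairs above 0, while female and male motor neuron cells stood at 0.05 and 0.07 over 21 pairs and female E5.5 cells at 0.03 over 28.

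**Figure D5:**
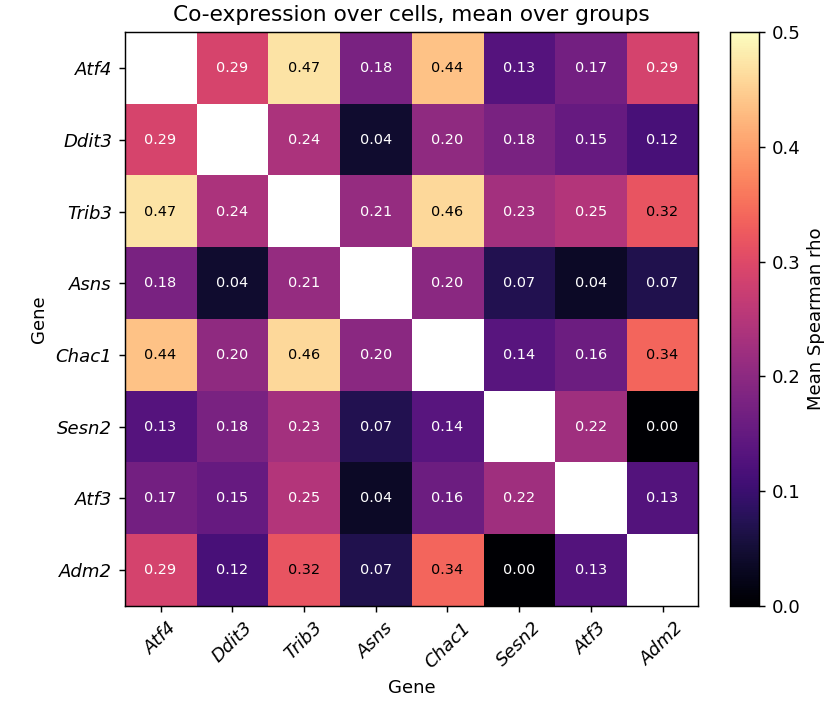
Spearman rho over cells within groups, averaged over the groups in which both genes were present in at least 10% of cells, for the 28 pairs. Atf4, Trib3 and Chac1 form the brightest block, at 0.44 to 0.47, and Asns with Ddit3 and Atf3, both 0.04, and Sesn2 with Adm2, 0.00, are among the darkest.

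The genes most like each member in this measure, among 13932 to 15114 genes ranked, included other members. For Atf4 they were Trib3, Chac1, Mthfd2 (0.42), Herpud1 (0.39) and the seryl-tRNA synthetase gene Sars (0.36), while 99% of all genes were below 0.18. For Trib3 they were Atf4, Chac1, Mthfd2 (0.45), Gdf15 (0.34) and Herpud1 (0.33). For Chac1 they were Trib3, Atf4, Mthfd2 (0.43), Adm2 and Herpud1 (0.33). For Adm2 they were Chac1, Trib3, Atf4, Mthfd2 (0.28) and the long non-coding RNA gene Gm9873 (0.28, 6 groups). Mthfd2 was thus among the 5 nearest genes of 4 members, and the lists come from the same cells.

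Asns was nearest to 3 tRNA synthetase genes, Nars (0.48), Gars (0.42) and Sars (0.39), which charge asparagine, glycine and serine onto tRNA, each over 13 groups. The pseudogene Gm21092 (0.36) and Ret (0.36) followed, over 6 groups each. Atf4 stood at rank 333 for Asns. Sesn2 was nearest to Nkx2-9 (0.31, 6 groups), Ddit4 (0.27), another restraint on mTORC1, Mdm2 (0.26), which holds p53 down, Abhd4 (0.26) and Fosl1 (0.26, 7 groups). Atf3 was nearest to Gdf15 (0.31, 8 groups), Trib3 (0.25), Nppb (0.24), Anxa3 (0.24) and Tnfrsf12a (0.23). Ddit3 was nearest to Atf4 (0.29), Ppp1r3b (0.28), Tsc22d3 (0.27), Gdf15 (0.26) and Eif1 (0.26).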

How the data were processed

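The authors deposited FPKM for each gene in each cell of the SMART-seq2 libraries. The submitters' processing notes name STAR 2.4.1, Cufflinks, Cuffnorm 2.2.1 and mm10, without their settings. The fragments behind the scaling and the strandedness of the libraries are not given in the sources used here. A low line stood for the minus sign of the exponent in 356 values and was read as such. Gene IDs were matched to GENCODE vM21.

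Each culture is its cells' mean FPKM. The 8 samples (4 states, 2 lines) entered 1 limma 3.58.1 fit (R 4.3.3) with trend on log2(mean FPKM + 1), on genes whose mean reached 1 FPKM, with 4 residual degrees of freedom, and the fit was tested on simulated data. All 3 comparisons share the serum cultures and the fit's spread. Lines pair the cultures across states, per the labels, and their deviations correlated at r = 0.06 to 0.16 over 15504 genes, and the line also entered as a replicate block in an alternative fit. Shares of cells used 1 FPKM and 95% Clopper-Pearson (exact) intervals, for counting error only. Runs of title numbers were split at gaps above 20.

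Members and gene lists were chosen with earlier results of these data known. The naming rule was list genes that limma called, otherwise the 3 largest and smallest changes of a list, and the 5 genes of highest mean rho for each member. In comparisons without a test the list genes that differed by 1 or more were named instead, a choice made after their values were seen. The alternatives were the pseudocount, the filter, mean of log2 values, cell-sum and upper-quartile scaling, cells of few genes, runs, the block, fewer cultures, each culture left out, the 7-passage culture, no minimum change and other share thresholds. Leaving out embryo cells rich in other markers, and the motor neuron split at 6, were chosen after seeing the data. Plots were made with matplotlib 3.10.9 and motifs were searched with Python 3.11.15.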

Additional observations from a re-analysis of the deposited data

Results flagged for a closer look

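In several comparisons of states the female and the male line moved in opposite directions. The difference between lines has 1 culture of each kind and was not tested. Values are the male minus the female log2 change.

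From serum to Epi this difference was 4.26 for Ddit3, 4.204 for Atf3, 3.89 for Adm2, 2.88 for Trib3, 2.37 for Chac1, 2.19 for Sesn2 and 0.80 for Atf4. The female changes were -0.98, -1.10, -1.05, -0.73, -0.09, -0.03 and -0.06 in that order, and the male changes 3.28, 3.10, 2.84, 2.15, 2.27, 2.16 and 0.74. Asns was the member that went up in both lines.

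From 2i to serum the difference was -1.51 for Ddit3 (1.01 in the female and -0.50 in the male line) and -1.41 for Atf3 (0.61 and -0.80). From serum to motor neuron it was 1.03 for Asns (-0.92 and 0.11) and 1.10 for Sesn2 (-0.62 and 0.48).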

How the results depend on the processing

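Counts of called genes moved with the processing. Where a culture of a compared state was left out, that state had 1 culture, and its spread between lines was not measured. In serum against 2i the count of 3 became 1.1e+02 (33 higher and 81 lower) with the 7-passage culture, 11 in the higher runs, 0 with the line as a replicate block, 204 with the mean of log2 values, 27 with no filter, 409 with the 4 cultures alone, 0 with a pseudocount of 0.1 and 12 under upper-quartile scaling. With a culture left out it was 48 without female Epi, 51 without male Epi, 14 without the female motor neuron culture, 1 without female serum and 0 without any one of the others. In Epi against serum the count of 6 became 848 with the 7-passage culture, 2 with the block, 1 in the lower runs and 1 with the 4 cultures alone, and with a culture left out 366 without female Epi, 77 without male Epi, 13 and 8 without the female and male motor neuron cultures and 0 without any one of the others. In motor neuron against serum the count of 5088 became 3137 with cells rescaled and 3189 with the mean of log2 values, and with a culture left out ran from 1669 (no female serum) and 1888 (no male serum) to 5486 (no female Epi).

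Without the male Epi culture the Epi change turned to -0.15 for Atf4, -0.013 for Ddit3, -0.58 for Trib3 and -0.63 for Atf3. In serum against 2i, Ddit3 turned to -0.36 with the mean of log2 values and to -0.72 without the female serum culture, and Atf3 to 0.14 without male 2i and 0.37 without male serum. In motor neuron against serum, Sesn2 turned to 0.31 without female serum and 0.10 without the female motor neuron culture. The block changed no member's call. Of the cell-level alternatives, 201 shares kept within their interval and 39 moved, all 56 mean rho values kept within their spread, and 2 means moved by more than 1 SD. Values near 1 FPKM are imprecise because the depth is unknown. The cause was not tested in any of these.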
